A study of Homo sapiens with 6 samples.

Results

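HEK293T cells carrying the sh-control hairpin are described here by what they expressed. Of the 6 RNA-seq libraries in the series, 3 are labelled as shRNA control, and these were chosen by that label alone. The other libraries are not used and nothing below is compared with them. HEK293T is a line derived from human embryonic kidney culture that carries adenovirus and SV40 large T antigen genes. The cells held a pLKO.1 lentiviral vector that expresses a short hairpin RNA against a nonspecific sequence (shCon), were kept as a stable line, and grew in DMEM with 10% FBS. RNA was isolated with TRIzol, and the kit (Illumina TruSeq Stranded Total RNA) keeps the strand of each transcript. No source used here says that the 3 replicates came from separate cultures, so the spread between them may be technical, and cells that had never received a vector are not among the samples.

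As background, HEK293 cells came from fetal kidney tissue, but the identity of the founding cell is debated, since the line carries features of kidney, of neurons and of the neural crest-derived adrenal medulla. Such a line is a mixed case for lineage genes: a gene that marks a cell type in the body can be kept, lost or gained in culture. Transcription factors of the HOX clusters mark position along the body axis, while PAX2, SIX2 and SALL1 act in the early kidney.

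The scale for levels is CPM, in the order of replicates 1, 2 and 3: a gene's reads were divided by the sum over all genes in the same library and multiplied by 1000000. CPM ranks genes by their share of the reads, which grows with transcript length, so levels of different genes are compared as RPKM, which is CPM divided by the summed exon length in kilobases, and a value after ± is the SD of the 3 libraries. A gene is called on at 1 CPM or more in each library, off at 3 reads or fewer in each, and low otherwise. Reads on genes numbered 23362197, 28441551 and 33044061, so that 1 CPM stood for 23.36 to 33.04 reads, and a gene with 0 reads could be present at up to 0.128, 0.105 and 0.0908 CPM. Intervals and limits of this kind cover counting error only.

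Replicate 1 stood apart from the other libraries. Over genes with 20 or more reads in a pair of libraries, the chi-square statistic per degree of freedom was 54.9 between replicates 1 and 2, 68.6 between replicates 1 and 3, and 5.13 between replicates 2 and 3. Counting noise alone gives a statistic near 1, so no pair looked like a library deposited more than once. This does not show that the cultures were separate. Across 14200 genes with a mean of 1 CPM or more, Pearson's r of log2(CPM + 0.01) was 0.978, 0.972 and 0.996 for the same pairs, a description over genes that share their libraries.

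Of 19565 protein-coding genes, 11523 were on, which is 58.9%, a further 2835 were low and 5207 were off. Over all RNA classes, 13415 of 55264 annotated genes were on and 32598 were off. Without replicate 1, 13883 genes passed 1 CPM in both remaining libraries. Long non-coding RNA genes were on in 1087 of 14084 cases and annotated pseudogenes in 581 of 14572. By autosome, the share of protein-coding genes that were on ran from 46.6% on chromosome 19 to 69.7% on chromosome 13.

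Reads were spread over many genes. The 10 genes with the most reads held 3.40%, 4.14% and 4.08% of the reads, and 50% of the reads lay on 1057, 1036 and 1064 genes. Only 75 genes had a mean of 1000 CPM or more, against 2531 between 100 and 1000 CPM, 6360 between 10 and 100 CPM and 5234 between 1 and 10 CPM. The middle class, from 100 to 1000 CPM, held 57.6% to 59.8% of the reads of a library.

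**Figure D1:**
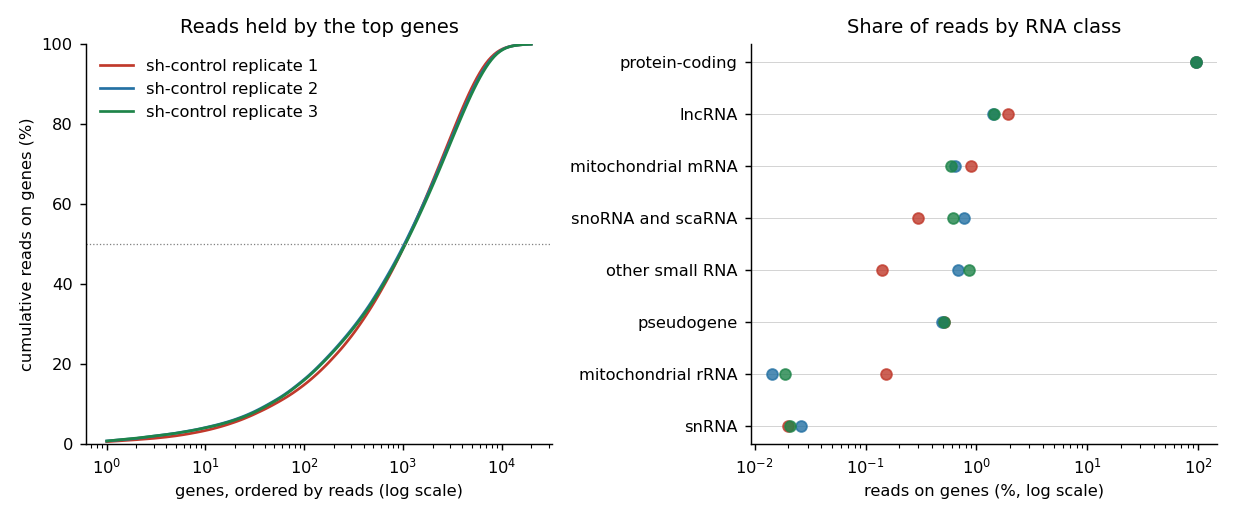
Cumulative percentage of reads on genes against gene rank on a log axis for the 3 sh-control libraries, with a dotted line at 50% (left), and the percentage of reads in each RNA class on a log axis, with a point per library (right). The 3 curves cross 50% between 1036 and 1064 genes, while mitochondrial rRNA and the class of other small RNAs, mostly 7SL, are the classes in which replicate 1 lies farthest from the other libraries.

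EEF1A1, the elongation factor that brings aminoacyl-tRNA to the ribosome, had the highest mean CPM of the genes reported here, at 6104, 7849 and 7740.2 CPM. RN7SL2, a gene for the 7SL RNA of the signal recognition particle, came next at 1133, 5819 and 7252 CPM. SNORD3A, a U3 small nucleolar RNA needed for processing of ribosomal RNA, followed at 2194, 6430.3 and 5082 CPM. These RNAs differ in how well the libraries agreed: the highest library was 1.29 times the lowest for EEF1A1, 2.93 times for SNORD3A and 6.40 times for RN7SL2. The 7SL genes are near-identical copies, so the level of a single copy is uncertain.

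Protein synthesis, protein folding and chromatin filled most of the other places among the 20 genes with the highest mean CPM. RPS4X, RPS6, RPL4 and RPL5 encode ribosomal proteins, and RPS4X stood at 3211, 3884 and 3764 CPM. HSPA8, HSP90AA1 and HSP90AB1 encode chaperones. HSPA8, the constitutive HSP70, stood at 2942, 3312 and 3178 CPM, and the stress-inducible HSP90AA1 at 3004, 1742 and 1679 CPM. HSP90AA1 was highest in replicate 1, whereas HSP90AB1, its constitutive paralogue, stood at 2123, 2069 and 2121 CPM.

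NPM1, a nucleolar histone chaperone, stood at 2670.0, 2899.8 and 2777 CPM. TOP2A, the topoisomerase of dividing cells that untangles replicated chromosomes, stood at 2051, 1879 and 1778 CPM. PRKDC, the catalytic subunit of DNA-dependent protein kinase in double-strand break repair, reached 2275, 1954 and 1999 CPM. All of these had libraries within 1.16 times of each other.

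Among the remaining top genes, PLS3, an actin-bundling protein, stood at 2341, 2329 and 2198 CPM, and LDHB, a lactate dehydrogenase subunit, at 2032, 2219.9 and 2059 CPM. RNA-binding proteins were also among them. HNRNPU, a nuclear matrix protein, stood at 2334, 1758 and 1711 CPM. DDX17, an RNA helicase, stood at 2138, 1873 and 1863 CPM. Both were highest in replicate 1.

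Per kilobase of exon, the ribosome led the nuclear protein-coding genes. RPS12 stood at 1533 ± 283 RPKM (SD, n = 3), RPS4X at 1235 ± 123 RPKM, RPS6 at 1113 ± 192 RPKM and RPS27 at 1037 ± 142 RPKM. In all, 10 of the 20 genes with the highest mean RPKM encode cytosolic ribosomal proteins. Histone genes H1-2 and H4C3 followed with 1019.7 ± 508 RPKM and 992 ± 335 RPKM. Their SDs were much larger than those of HSP90AB1 (706 ± 10.2 RPKM) or LDHB (705 ± 34.0 RPKM). The level of LDHB is uncertain, since 76.5% of its canonical exons lie under same-strand exons of other genes. Others of the first 20 were RPS18, RPL7, RPS3A, RPL7A and RPL5 of the ribosome, EEF1A1, HSPA8, PLS3, UBB (a polyubiquitin gene), GAPDH of glycolysis and NDUFA1 of respiratory complex I, between 509 ± 89.6 RPKM and 720.0 ± 183 RPKM. This order depends on the length used: with the canonical transcript in place of all exons, a choice made after seeing the data, 16 of the 20 were ribosomal protein genes and the lists shared 11 genes.

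All 79 genes for cytosolic ribosomal proteins were on, and together they took 4.62%, 6.58% and 6.55% of the reads. RPS12 was the highest of them and RPL17 the lowest, at 2.24 ± 0.229 RPKM, with 96.9% of its canonical exons under exons of other genes on the same strand. Replicate 1 had the lowest value for 76 of the 79, beside 44.6% of all 14200 genes with a mean of 1 CPM or more. A highest library over 2 times the lowest was seen for 23 of the 79, beside 12.0% of those genes. RPS16 went the other way, with 42.4, 19.7 and 19.1 CPM. Whether this follows from the cells or from the libraries was not tested.

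Replication-dependent histone genes, whose mRNAs end in a stem-loop in place of a poly(A) tail, were on in 37 of 65 cases. That is near the 58.9% of all protein-coding genes. They took 0.174%, 0.464% and 0.533% of the reads. H1-2, a linker histone, stood at 330.1, 862 and 1044 CPM, and H4C3, an H4 gene, at 246, 462 and 497 CPM. Of the 41 histone genes with a mean of 1 CPM or more, 39 were lowest in replicate 1 and 37 had a highest library over 2 times the lowest. Over all genes at that level these shares were 44.6% and 12.0%. Reads that fit several histone copies equally well were not counted, so single histone genes are uncertain.

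Genes of the mitochondrial genome took 1.04%, 0.651% and 0.608% of the reads, and all 13 of its mRNAs were on. MT-CO1, a core subunit of cytochrome c oxidase, stood at 3377, 2585 and 2393 CPM, and MT-CO3 of the same complex at 2487, 1923 and 1696 CPM. MT-ATP6, a subunit of ATP synthase, stood at 296, 121 and 120.3 CPM. These mRNAs were highest in replicate 1, and MT-ND6, the gene encoded on the other strand of that genome, was nearly level at 24.2, 26.1 and 26.8 CPM. The ribosomal RNAs of the mitochondrion had the widest gap: MT-RNR2 stood at 1391, 132 and 175 CPM and MT-RNR1 at 134, 10.8 and 13.8 CPM.

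Among the long non-coding RNAs reported here MALAT1, a nuclear speckle RNA, had the most reads, at 2827, 1191 and 1186 CPM. Host genes of small nucleolar RNAs followed, with SNHG16 at 448, 497 and 477 CPM and GAS5 at 269, 295 and 279 CPM. NORAD, a cytoplasmic RNA that binds PUMILIO proteins, stood at 360.4, 312 and 309 CPM. MALAT1 in replicate 1 was 2.38 times its lowest library, while the host genes and NORAD were nearly level. The largest classes of small RNA moved the opposite way. Small nucleolar and Cajal body RNAs summed to 0.297%, 0.775% and 0.614% of the reads, and the class with 7SL to 0.142%, 0.684% and 0.854%. Smaller classes did not share this: snRNA summed to 0.0201%, 0.0263% and 0.0209%, and miRNA hairpins to 0.0123%, 0.0102% and 0.00995%.

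Lineage genes were read from 16 lists of cell type markers with 196 genes. In all, 60 were on, 44 were low and 92 were off, so that 30.6% were on against 58.9% of all protein-coding genes. Without replicate 1 the count on was 62. Transcripts of the viral genes that the line carries were not analysed here, so the HEK293T label was read only through these human genes. The lists hold genes picked because they are restricted to a cell type, and the share is given as a description.

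**Figure D2:**
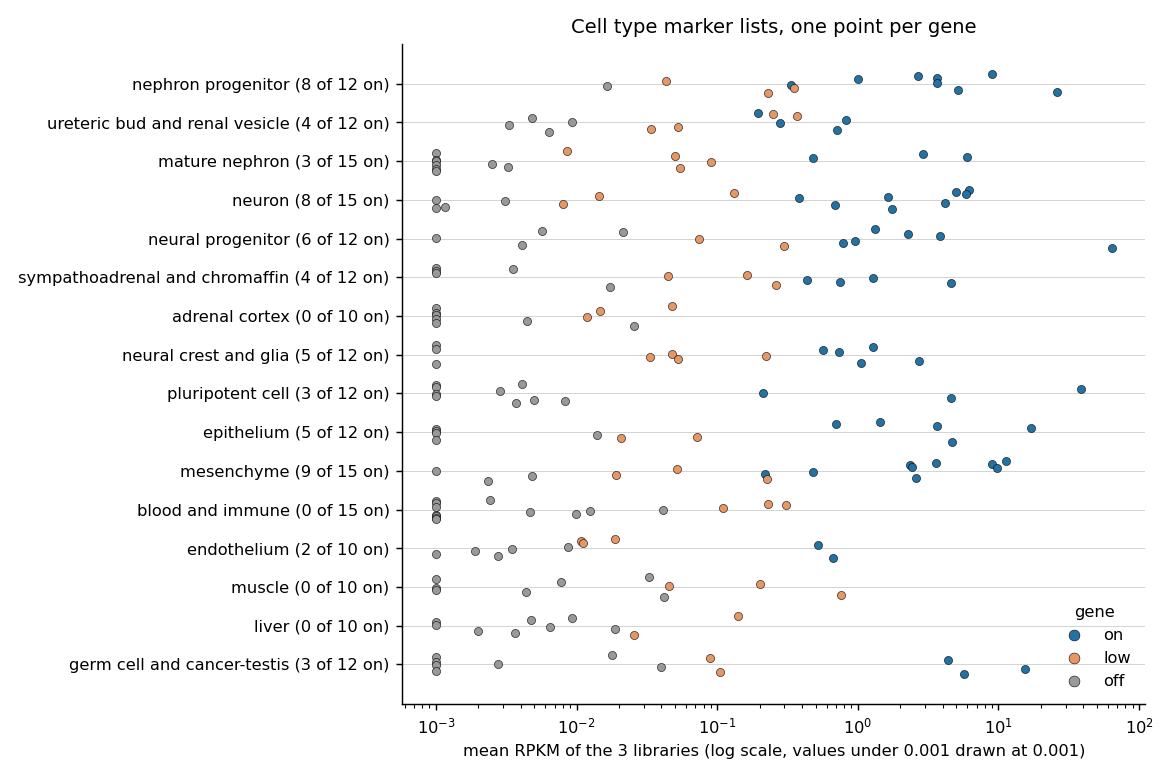
Mean RPKM of the 3 libraries on a log axis for each gene of the 16 marker lists, with a point per gene coloured by whether it was on, low or off. Nephron progenitor and mesenchyme have the largest shares of genes that were on (8 of 12 and 9 of 15), and adrenal cortex, blood and immune, muscle and liver have none. Of all protein-coding genes, 58.9% were on.

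Early kidney genes differed by list. In the nephron progenitor list, 8 of 12 genes or 66.7% were on, not far from the 58.9% of all protein-coding genes, with a median of 1.84 RPKM beside 1.01 RPKM over all protein-coding genes. HOXA11, which with HOXD11 patterns the metanephric mesenchyme, stood at 56.0, 74.3 and 77.4 CPM. HOXD11 stood at 11.5, 11.0 and 9.96 CPM. CITED1, a transcriptional coregulator of these progenitors, stood at 3.85, 7.03 and 8.47 CPM, although 83.4% of its canonical exons lie under same-strand exons of other genes. PAX2, a factor that the whole renal lineage uses, was off, with 3, 3 and 3 reads. SIX2 and SALL1, given because the background above names them with PAX2, were on. SIX2 stood at 6.63, 5.59 and 5.54 CPM and SALL1 at 25.9, 19.3 and 23.6 CPM.

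The ureteric bud and renal vesicle list had 4 of 12 genes on, all at low levels. EMX2, a homeobox factor of the urogenital system, stood at 2.53, 3.16 and 2.42 CPM. JAG1, a Notch ligand, stood at 6.55, 6.12 and 7.14 CPM, LHX1, a LIM homeobox factor of early nephrons, at 1.20, 1.23 and 1.66 CPM, and RET, the receptor for GDNF, at 1.93, 1.51 and 1.82 CPM. None of the 4 reached 1 RPKM in all libraries. WNT9B, PAX8 and CALB1 were off, and PAX8, another renal PAX factor, had 1, 0 and 1 reads.

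Genes of the working nephron were mostly off, in 8 of 15 cases, and 6 of them had no read in any library. LRP2 (megalin), the endocytic receptor of the proximal tubule, was the highest of the 3 that were on, at 109, 86.4 and 92.5 CPM. Its partner CUBN (cubilin) stood at 8.18, 5.13 and 5.72 CPM, and PODXL (podocalyxin), a sialomucin of podocytes and other cells, at 20.8, 18.8 and 20.2 CPM. The proximal transporters SLC34A1 and SLC22A6 were among those without a read, and the SLC12A1 cotransporter of the loop of Henle had 0, 1 and 2 reads.

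Neuronal genes split. In the neuron list, 8 of 15 or 53.3% were on, not far from the 58.9% of all protein-coding genes, led by the intermediate filament genes. NEFL, the light neurofilament chain, stood at 23.3, 25.2 and 24.8 CPM, NEFM at 23.8, 14.6 and 15.7 CPM, and INA (alpha-internexin) at 21.7, 18.8 and 17.0 CPM. SYT1, the calcium sensor of synaptic vesicles, stood at 44.8, 34.3 and 38.5 CPM. By contrast ELAVL3, ELAVL4, RBFOX3 and DCX, RNA-binding and microtubule proteins of maturing neurons, were off, with at most 1 read in a library. TUBB3, the neuronal beta-tubulin, was low with 3, 2 and 4 reads, but 92.8% of its canonical exons lie under same-strand exons of other genes, so its level is uncertain.

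Neural progenitor genes were on in 6 of 12 cases. VIM (vimentin), also a mesenchymal intermediate filament, led them with 325, 344 and 320.1 CPM. PAX6, a regulator of neural and eye progenitors, stood at 44.6, 47.2 and 49.8 CPM, NES (nestin) at 19.5, 21.5 and 22.9 CPM, and SOX2, a factor of neural and pluripotent stem cells, at 3.94, 2.99 and 3.09 CPM. SOX1, SOX3 and FABP7 were off, so the factors of this list did not go together.

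The adrenal lists were less represented. In the sympathoadrenal and chromaffin list, 4 of 12 genes were on, all of them transcription factors. ISL1, a LIM homeobox factor, stood at 14.7, 11.3 and 12.6 CPM, GATA2 at 2.87, 4.01 and 4.21 CPM, HAND1 at 2.31, 1.93 and 2.30 CPM and HAND2 at 1.46, 1.48 and 1.76 CPM. TH and DBH, the enzymes that make catecholamines, had no read in any library, nor had PHOX2A. Of 10 adrenal cortex genes none was on. The steroid enzymes CYP11A1, CYP11B1 and CYP21A2 and the receptor NR0B1 had no read, and NR5A1 (SF1), the master regulator of steroid-producing cells, was low with 2, 8 and 4 reads.

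Neural crest and glial genes were on in 5 of 12 cases. MITF, the melanocyte factor that also has broader isoforms, stood at 23.1, 19.4 and 17.9 CPM, TFAP2A, an AP-2 factor of the crest, at 14.3, 8.65 and 8.53 CPM, and ERBB3, a neuregulin receptor, at 8.77, 7.81 and 9.38 CPM. PMEL, a melanosome protein, stood at 2.27, 4.15 and 5.17 CPM. SOX10, the defining crest and glial factor, TFAP2B and TYR had no read in any library.

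Pluripotency genes were off in 9 of 12 cases, with LIN28B as the clearest gene that was on. LIN28B, which blocks maturation of let-7 microRNAs, stood at 252, 219 and 214 CPM and 38.4 ± 3.46 RPKM. DNMT3B, a de novo DNA methyltransferase, stood at 27.4, 32.0 and 35.5 CPM, and SALL4, a zinc finger factor, at 1.24, 1.05 and 1.39 CPM. NANOG and LIN28A, the paralogue of LIN28B, had no read, while POU5F1 (OCT4) had 0, 1 and 0 reads and DPPA4 1, 0 and 0 reads.

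Epithelial and mesenchymal genes were on side by side. KRT18, a keratin of simple epithelium, had the highest RPKM of the epithelium list and stood at 35.7, 59.6 and 62.8 CPM, and its partner KRT8 at 11.3, 27.7 and 36.0 CPM. OCLN (occludin), a tight junction protein, stood at 61.1, 49.6 and 46.5 CPM, and CDH1 (E-cadherin) at 8.43, 8.83 and 8.78 CPM. The keratin values were lowest in replicate 1, and KRT8 differed 3.17 times between libraries. KRT19, KRT7 and CLDN3 had no read, and CLDN4 had 0, 3 and 3 reads, leaving 5 of 12 genes on.

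In the mesenchyme list, 9 of 15 or 60.0% were on, near the 58.9% of all protein-coding genes. CDH2 (N-cadherin) stood at 101, 93.8 and 95.1 CPM, more per kilobase (11.3 ± 0.436 RPKM) than CDH1 (1.43 ± 0.0352 RPKM). ZEB1, a repressor of CDH1, stood at 84.4, 75.5 and 74.3 CPM, SNAI2 (SLUG) at 33.1, 31.4 and 31.9 CPM and FN1 (fibronectin) at 63.4, 59.9 and 61.5 CPM. The highest library of each was at most 1.14 times the lowest. In the same list COL1A2, a collagen chain, had no read, and DCN (decorin) and the surface protein THY1 were off.

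The endothelium, blood and immune, muscle and liver lists held 2 genes that were on. In the endothelium list ESAM, an adhesion molecule, stood at 1.67, 1.90 and 2.27 CPM and KDR, a VEGF receptor, at 3.51, 3.16 and 3.21 CPM, while TEK, TIE1, ERG and CLDN5 were off. No gene was on among 15 blood and immune, 10 muscle and 10 liver genes, although 1 muscle gene was on without replicate 1. That gene, TNNI3 (cardiac troponin I), named after its values were seen, stood at 0.856, 1.44 and 2.30 CPM, with 56.8% of its canonical exons under same-strand exons of other genes. PTPRC (CD45) had 1, 2 and 0 reads, and CD3E, CD4 and MS4A1 had none. Among the muscle genes MYF5 and MYH1 had no read, with at most 3 reads in a library for MYOD1 and MYOG. In the liver list APOA1, APOB, TTR and FGB were off.

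Of 12 germ cell and cancer-testis genes 3 were on. PRAME, a tumour antigen, stood at 52.4, 62.9 and 60.0 CPM, TEX15, a meiotic and piRNA factor, at 81.2, 59.5 and 60.3 CPM, and MAGEA3, an X-linked cancer-testis antigen, at 5.31, 8.51 and 9.59 CPM. The germ cell RNA-binding genes DDX4 and DAZL and the cancer-testis antigens MAGEA4 and MAGEC1 were off. GAGE1 and CTAG1B have near-identical copies, and their 0 reads say little.

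HOX genes were widely on, in 33 of 39 cases or 84.6%, beside 58.9% of all protein-coding genes, and the count was also 33 without any single library. All 11 HOXA genes were on, 9 of 10 HOXB, 7 of 9 HOXC and 6 of 9 HOXD genes. HOXB9, the highest of all clusters, stood at 131, 125 and 131 CPM and 49.8 ± 1.39 RPKM. HOXA5 led its cluster with 47.6 ± 1.80 RPKM, HOXD13 with 28.9 ± 2.30 RPKM and HOXC9 with 11.2 ± 0.593 RPKM.

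Paralogues from both ends of the clusters were on. The 16 genes of paralogue groups 9 to 13 had a median of 8.66 RPKM and the 23 genes of groups 1 to 8 a median of 2.70 RPKM, with ranges from 0.0338 to 49.8 RPKM and from 0 to 47.6 RPKM that overlap. HOXB1, a hindbrain gene, was the single HOX gene that was off, with no read. HOXC5, HOXC12, HOXD1, HOXD4 and HOXD12 were low. Neighbouring HOX genes on the same strand share exons, and 67.3% of the canonical exons of HOXC5 lie under other genes.

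**Figure D3:**
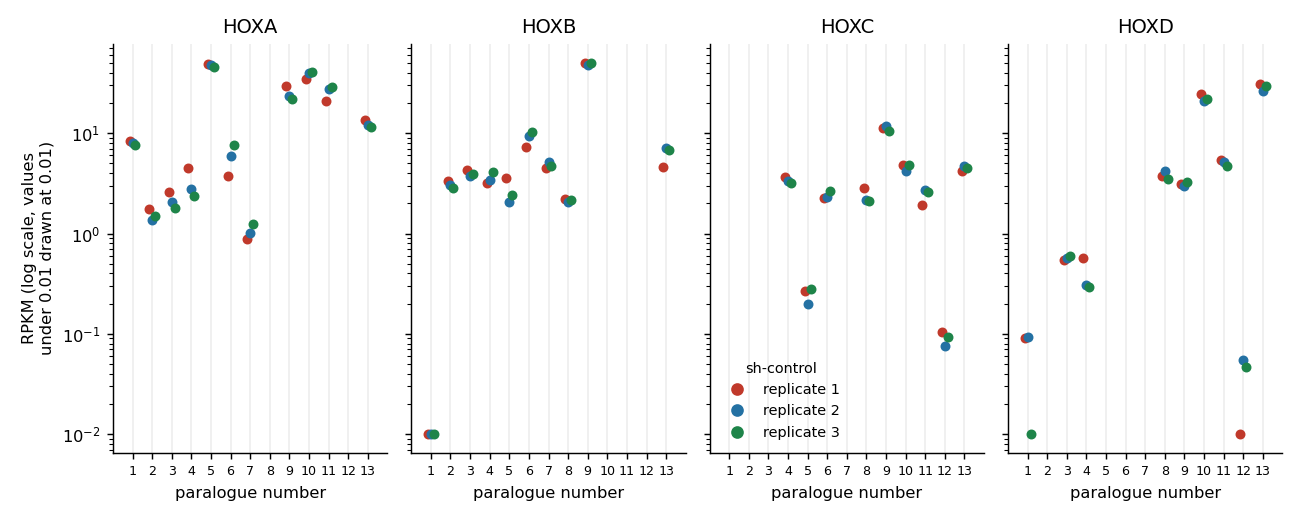
RPKM on a log axis of each HOX gene against its paralogue number in the 4 clusters, with a point for each sh-control library and values under 0.01 drawn at 0.01. HOXB9, HOXA5, HOXA10 and HOXD13 are highest, HOXB1 is at the floor in all libraries, and the 3 points of most genes lie close together.

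The other 14 transcription factor families had 83 of 176 genes on, or 47.2%, beside 58.9% of all protein-coding genes, and 55 off. The leading gene of each family below is the one with the highest RPKM. FOXC1, a forkhead factor of mesenchyme and periocular tissue, was the highest of 23 of 45 FOX genes that were on, at 171, 139.8 and 139.9 CPM. SIX4 led 3 of 6 genes of its family at 101, 82.0 and 81.5 CPM, and PBX3, a HOX cofactor, led the MEIS and PBX families, in which 6 of 7 genes were on, at 71.4, 60.3 and 55.6 CPM. SOX4, a factor of progenitor cells, led 8 of 19 SOX genes at 52.9, 50.7 and 49.0 CPM. In these families the genes that were on covered several lineages.

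POU2F1 (OCT1), which is expressed in most cells, led 6 of 15 POU genes at 179.8, 155 and 165 CPM. KLF9 led 11 of 18 KLF genes at 42.3, 33.1 and 39.8 CPM, and TBX3 led 6 of 14 TBX genes at 42.9, 40.1 and 40.8 CPM. GATA6, an endoderm and heart factor, led 3 of 6 GATA genes at 10.4, 8.02 and 8.38 CPM. Beside 58.9% of all protein-coding genes, the shares on were lowest in PAX, NKX, IRX and HNF. In PAX 3 of 9 genes were on, led by PAX6, and in NKX 4 of 14, led by NKX2-4 at 3.30, 2.07 and 2.09 CPM. In IRX 2 of 6 were on, led by IRX3 at 2.05, 2.32 and 2.91 CPM. HNF4G was the only HNF gene on, at 9.33, 8.16 and 8.23 CPM. LHX8 led 5 of 8 LHX genes at 5.22, 5.77 and 4.90 CPM, and TFAP2C led 2 of 5 TFAP2 genes at 5.86, 5.20 and 5.66 CPM.

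RREB1, the zinc finger factor that is the subject of the study and that binds RAS-responsive elements, was on in these control cells at 26.7, 24.0 and 25.8 CPM and 1.48 ± 0.0785 RPKM. Of the list of RREB1 and proteins of its corepressor complexes, 17 of 18 genes were on, beside 58.9% of all protein-coding genes. The median of the list was 6.73 RPKM. It was 1.01 RPKM over all protein-coding genes and 5.81 RPKM over those that were on. HDAC1, a histone deacetylase, stood at 107 ± 12.1 RPKM, and HDAC2 at 25.2 ± 3.56 RPKM. RBBP7 and RBBP4, histone-binding subunits shared by several complexes, stood at 96.8 ± 5.06 RPKM and 65.6 ± 9.38 RPKM. SIN3A, the scaffold, stood at 149.5, 102 and 102 CPM, and KDM1A (LSD1), a histone demethylase, at 339.9, 358 and 361 CPM. RCOR2 was the member that was low, at 0.642, 1.16 and 1.33 CPM.

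Receptor tyrosine kinases, many of which signal through RAS, were on in 35 of 53 cases, or 66.0%, beside 58.9% of all protein-coding genes. RYK, a WNT co-receptor, stood at 131, 131 and 126 CPM, MET, the receptor for hepatocyte growth factor, at 109, 111 and 108 CPM, EPHA4, an ephrin receptor, at 59.9, 61.2 and 61.2 CPM, and MERTK, a receptor of the TAM group, at 33.2, 32.3 and 32.7 CPM. These 4 had the highest RPKM of the list, and their libraries differed by 1.02 to 1.04 times. Other receptors were less level. Of the 37 with a mean of 1 CPM or more, 5 or 13.5% had a highest library over 2 times the lowest. That is near the 12.0% of all genes at that level, and the median ratio of the 37 was 1.34. CSF1R, ALK, ROS1 and MUSK were off, ALK and MUSK without a read.

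All 20 genes of the RAS-ERK cascade were on, beside 58.9% of all protein-coding genes. NRAS, which had the highest RPKM of the list, stood at 341, 302 and 293 CPM and 72.1 ± 5.81 RPKM, and HRAS at 2.48, 8.93 and 10.9 CPM. HRAS was lowest in replicate 1, by 4.39 times against the highest library, while NRAS differed 1.16 times. A highest library over 2 times the lowest was seen for 4 of the 20, or 20%. Over all genes with a mean of 1 CPM or more that share was 12.0%. MAPK3 (ERK1), a kinase at the end of the cascade, stood at 15.1, 27.8 and 32.5 CPM. PTPN11 (SHP2), a phosphatase that promotes RAS activation, stood at 495, 438 and 439 CPM, and the adaptor GRB2 at 88.1, 114 and 125 CPM.

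Genes that the study examined in these cells were on in 8 of 10 cases, beside 58.9% of all protein-coding genes. Of the 9 with a mean of 1 CPM or more, 4 had a highest library over 2 times the lowest, beside 12.0% of all genes at that level. The list is rich in G and C, with a median of 60.4% GC in the exons. Among all genes at that level with 59.3% to 71.4% GC, the share over 2 times was 62.0%. Those 4 were HRAS, MAP2K2 (MEK2) at 9.59, 22.0 and 24.8 CPM, AKT1 at 12.2, 32.6 and 39.9 CPM and FGFR4 at 0.728, 1.86 and 2.63 CPM, each lowest in replicate 1. FGFR4, a receptor for fibroblast growth factors, was therefore low by the rule used here. MYC stood at 17.8, 15.7 and 17.7 CPM, JUN at 23.8, 27.4 and 30.0 CPM, JUND at 1.93, 1.62 and 1.42 CPM and DUSP7, a phosphatase of ERK, at 5.18, 6.68 and 8.50 CPM. SSR1, a translocon protein whose gene neighbours RREB1, stood at 238, 184 and 180.2 CPM, and LY86, another neighbour, had no read.

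**Figure D4:**
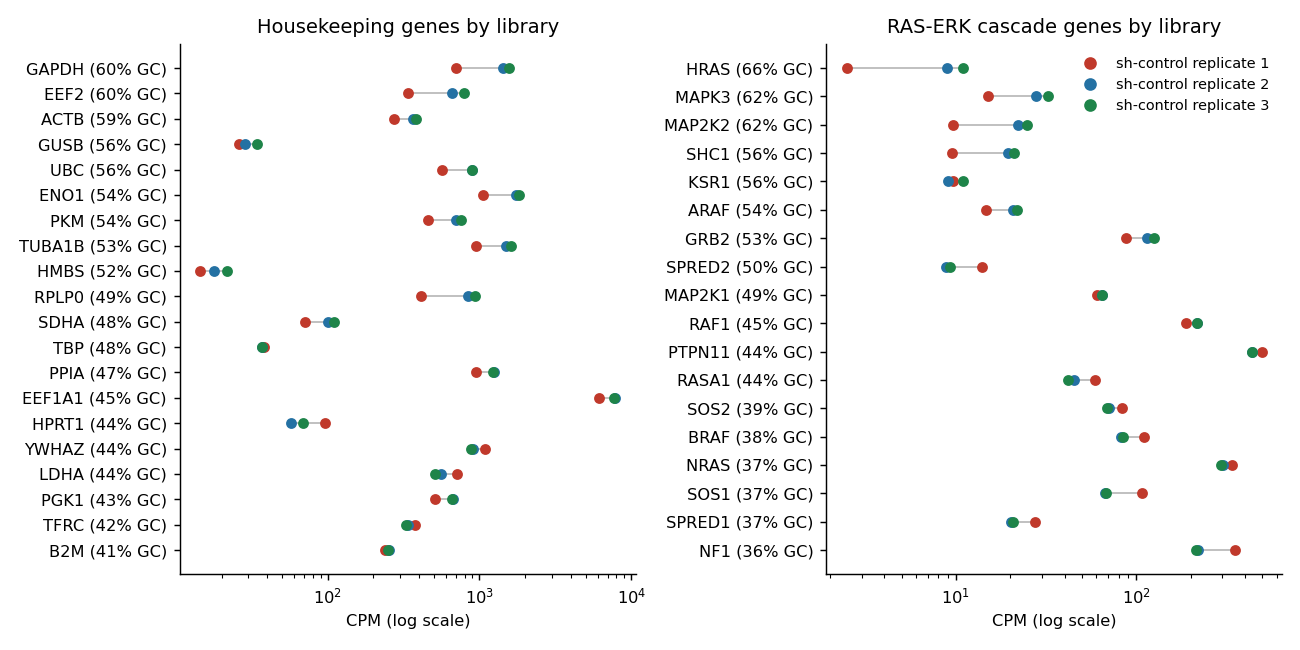
CPM on a log axis of 20 housekeeping genes (left) and 18 genes of the RAS-ERK cascade (right), ordered by the GC content of their exons and with a point for each sh-control library. Replicate 1 lies to the left of the other libraries for genes at the top, such as GAPDH and HRAS, and to the right for NF1 and SPRED1 at the bottom of the right panel.

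All 20 housekeeping genes were on, beside 58.9% of all protein-coding genes, with a median of 105 RPKM. Several still differed between libraries. GAPDH stood at 699, 1427 and 1576 CPM, ENO1 of glycolysis at 1063, 1741 and 1817 CPM and TUBA1B, an alpha-tubulin, at 956, 1492 and 1625 CPM. TBP, the TATA-binding protein, stood at 37.9, 36.8 and 36.9 CPM, and B2M, the light chain of class I molecules, at 239, 252 and 249 CPM. GAPDH differed 2.25 times and TBP 1.03 times between libraries. A highest library over 2 times the lowest was seen for 3 of the 20 genes, or 15%. That is near the 12.0% of all 14200 genes with a mean of 1 CPM or more. Replicate 1 was lowest for 15 of the 20, beside 44.6% of those 14200 genes.

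Spread over the whole transcriptome was uneven. The common biological coefficient of variation, the relative spread beyond counting noise, was 20.9% by edgeR over genes with 10 or more reads in all, and 5.46% without replicate 1. The median gene with a mean of 1 CPM or more had an SD of 13.0% of its mean. Of these 14200 genes, 1700 or 12.0% had a highest library over 2 times the lowest. Replicate 1 was the lowest library for 1500 of the 1700 and the highest for 188. Between replicates 2 and 3 alone, 27 genes differed over 2 times.

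GC content moved with this spread. The 14200 genes were put in 10 bins of 1420 by the GC content of their exons. In the lowest bin (26.7% to 38.3% GC), the median log2 ratio of replicate 1 to the mean of the other libraries was 0.29. It was -1.04 in the highest bin (59.3% to 71.4% GC). The share of genes with a highest library over 2 times the lowest was 4.51% and 62.0% in these bins. The median log2 ratio of replicate 2 to replicate 3 went the same way over a smaller range, from 0.04 to -0.24. Across genes, Spearman's rho of GC content with the log2 ratio of replicate 1 was -0.738, a description over genes that share 3 libraries. The part of GC content in the spread was not tested apart from the alternatives given with the processing.

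**Figure D5:**
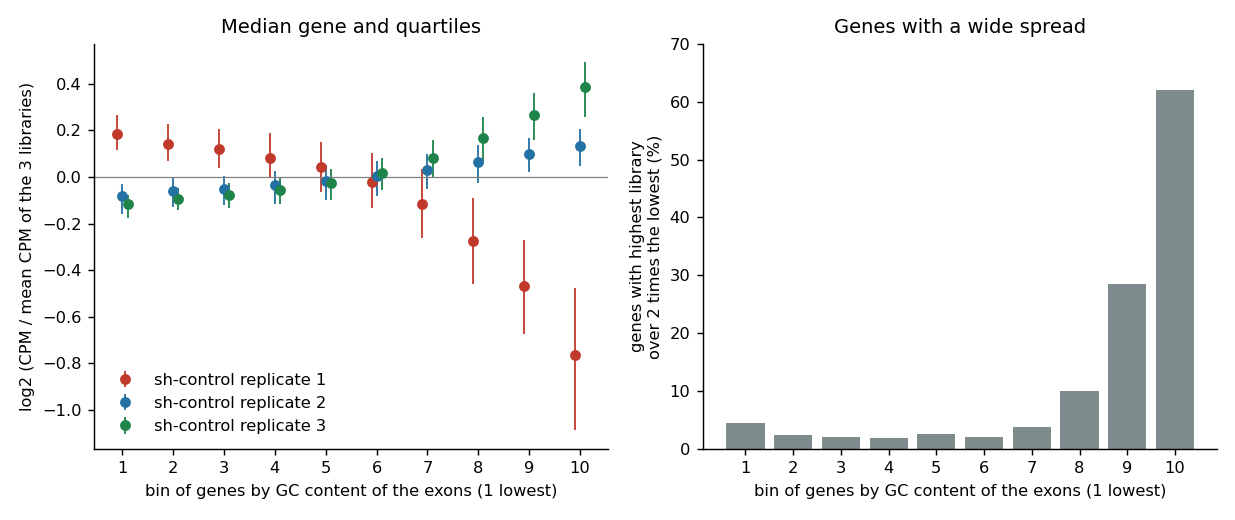
Median log2 ratio of CPM to the mean CPM of the 3 libraries, with quartiles as bars, in 10 bins of genes by the GC content of their exons (left), and the percentage of genes with a highest library over 2 times the lowest in each bin (right). Replicate 1 runs from above the other libraries at low GC content to below them at high GC content, where 62.0% of the genes pass 2 times.

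Among protein-coding genes with a mean of 10 CPM or more, the 10 with the widest gaps included 5 histone and 2 ribosomal protein genes. H2AC13, an H2A gene, stood at 8.99, 41.7 and 58.2 CPM, a ratio of 6.47. H3C10 and H3C1, which encode H3, had ratios of 6.27 and 5.95, and H2AC12 one of 5.85. RPS15, of the small ribosomal subunit, stood at 30.6, 121 and 166 CPM, a ratio of 5.42. The remaining genes of the first 10 were LAMTOR4, H2BC13, RPL36, ELOB and SBF1, with ratios from 4.70 to 5.23, and all 10 were lowest in replicate 1.

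Other genes were almost level. TTC26, an intraflagellar transport protein of cilia, stood at 70.3, 70.3 and 70.3 CPM, and ARFGAP3, a GTPase-activating protein of the Golgi, at 69.1, 69.2 and 69.0 CPM. MMADHC of vitamin B12 metabolism stood at 235, 234 and 235 CPM, and NSF, the ATPase that takes SNARE complexes apart, at 199, 198 and 198 CPM. HEY1, a Notch target, and PHAX, an snRNA export factor, were also among the 10 genes with the smallest ratio at a mean of 50 CPM or more, as were TMEM192, SRRD, HDDC2 and EXOSC6.

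Coding sequence of 2 genes from each end of this order is shown because the ends differ in base composition. Each line holds the first 90 bases of the longest coding exon block of the canonical transcript, 5′ to 3′ on the strand of the gene, with G and C in capitals. The H2AC13 bases lie at chr6:27808210-27808299 (plus strand), those of RPS15 at chr19:1440019-1440108 (plus strand), those of TTC26 at chr7:139148206-139148295 (plus strand) and those of ARFGAP3 at chr22:42822320-42822409 (minus strand), all in hg38.
H2AC13: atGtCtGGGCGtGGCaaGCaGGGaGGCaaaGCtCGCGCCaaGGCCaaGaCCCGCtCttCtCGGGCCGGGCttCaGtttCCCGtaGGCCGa
RPS15: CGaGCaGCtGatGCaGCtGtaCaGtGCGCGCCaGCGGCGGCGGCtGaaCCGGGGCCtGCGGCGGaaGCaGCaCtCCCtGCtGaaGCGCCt
TTC26: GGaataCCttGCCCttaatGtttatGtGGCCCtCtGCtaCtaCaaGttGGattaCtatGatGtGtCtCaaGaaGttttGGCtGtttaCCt
ARFGAP3: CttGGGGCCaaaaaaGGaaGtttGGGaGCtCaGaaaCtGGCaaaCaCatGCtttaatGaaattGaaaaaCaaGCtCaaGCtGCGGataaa
G and C made up 65.6% of the H2AC13 bases and 71.1% of the RPS15 bases, against 41.1% for both TTC26 and ARFGAP3. These are 4 examples, chosen after the ratios were known, and whole exons gave 60.0%, 62.7%, 39.7% and 44.1%. The ends can lie closer: H3C10, with a ratio of 6.27, had 49.0% GC in its exons, and SRRD, among the level genes, had 47.8%.

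In the direction that raised replicate 1, HNRNPH3, an RNA-binding protein, had the largest ratio among protein-coding genes with a mean of 10 CPM or more, at 116, 39.9 and 32.3 CPM. This gene was chosen after its values were seen, as was EIF5B, a translation initiation factor, with 279, 136 and 125 CPM. Genes over 2 times and highest in replicate 1 had a median GC content of 40.4%, beside 60.1% for those lowest in replicate 1 and 46.5% over all 14200 genes.

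Level also bore on the spread. The median SD was 9.07% of the mean for the 75 genes at 1000 CPM or more, 8.47% for genes between 100 and 1000 CPM, 10.9% between 10 and 100 CPM and 20.1% between 1 and 10 CPM. Genes with a highest library over 2 times the lowest made up 8%, 2.37%, 8.07% and 21.4% of these classes, so the spread was smallest in the class from 100 to 1000 CPM.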

How the data were processed

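Total RNA of HEK293T cells was sequenced, and the study's methods name STAR 2.4.2a, hg38 and the Gencode 25 annotation for alignment and counting. The authors deposited raw counts without normalization, in a table per library with a column for both strands and for each strand, and in a merged table. The same-strand column was used. All 24635 identifiers with counts in the merged table matched the library tables exactly. STAR leaves reads that fit several genes or places uncounted, which lowers genes with overlapping neighbours or near-identical copies, and lines for reads on no gene (33.1%, 23.7% and 24.9% of aligned reads) stayed out of library sizes.

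Of 57992 identifiers, 56948 matched Gencode version 44 on hg38, which gave symbols, RNA classes, exon lengths and GC content. Identifiers outside it held 0.202% to 0.229% of the reads and stayed in the library totals. For genes that share a symbol the identifier with the most reads was kept, and genes of chromosome Y and sex-linked non-coding RNAs were not reported. CPM was taken on the total of reads on genes. No groups were compared and no p-value was computed. The biological coefficient of variation was estimated with edgeR 4.0.16 in R 4.3.3 (intercept only, TMM, 10 or more reads in all), and the script for this estimate was checked on simulated counts. DESeq2 1.42.0 gave size factors as an alternative. The trend on GC content and length used natural splines with 5 degrees of freedom. Other steps used Python 3.11.15 with pandas 2.3.3.

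The members and the gene lists were chosen with earlier results of these data known. Genes named are the 20 highest by CPM and by RPKM, up to 4 genes on and 4 off in each list, the highest gene on of each family, the 10 protein-coding genes with the largest and smallest ratio of highest to lowest library, and the genes the study named in these cells. Some genes that meet this rule are not reported here.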

Additional observations from a re-analysis of the deposited data

Results flagged for a closer look

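C2orf16 was singled out because a signal lay in data outside the main measurement, the reads counted on the strand opposite to each gene. The gene (chromosome 2, 27537386 to 27582722, plus strand, hg38) had 0, 4 and 2 reads on its own strand and 257, 222 and 287 on the opposite strand in sh-control replicates 1, 2 and 3. It was the only case among 5113 protein-coding genes with no other annotated gene within 5 kb on the opposite strand that had at least 100 opposite-strand reads, and more than on its own strand, in each library. Its source was not tested. Groups of 3 libraries are too small for the outlier check used here, so no single value was tested as an outlier.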

How the results depend on the processing

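Of 85 recomputed summary values, 77 stayed within 1.5 times the reported value. Some of the 77 could not differ. A minimum of 10 reads in all cannot remove a gene with 1 CPM or more in each library. Library totals alone, or a lower read filter, leave the median SD over the mean and the share over 2 times as they were. With 1 RPKM in place of 1 CPM, 38 marker genes were on in place of 60. With a smooth trend on GC content and exon length removed from each library, the common biological coefficient of variation was 11.8% in place of 20.9% and the share of genes with a highest library over 2 times the lowest was 3.25% in place of 12.0%. Leaving out each library in turn gave 5.46% to 28.2% for the coefficient of variation, 4.78% to 14.6% for the median SD over the mean and 0.239% to 10.8% for that share. The lowest value of each came without sh-control replicate 1, and the share was 7.26% without replicate 3. Canonical transcript length, added after seeing the data, put 16 ribosomal protein genes among the 20 highest per kilobase in place of 10. For single marker lists, 165 of 176 counts stayed within 1.5 times. The ureteric and endothelium lists fell to 0 genes on at 1 RPKM, blood and immune reached 2 at 0.5 CPM, and muscle reached 1 at 0.5 CPM and without replicate 1. Scaling by TMM or DESeq2 size factors left the counts of genes on at 13415. The TMM factors were 1.009, 0.987 and 1.004 and the DESeq2 factors 1.003, 0.994 and 1.003. Factors this close to 1 could hardly change a call, so the equal count says little about normalization. No paired analysis was possible because a single group was described. Depth limits low genes, since 3 reads stood for 0.0908 to 0.128 CPM, and n = 3 limits every SD.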

Other observations

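Reads outside annotated genes were also unequal. Replicate 1 had 33.1% of its aligned reads on no gene, against 23.7% and 24.9% in replicates 2 and 3, and reads that fit several places made up 3.66%, 6.49% and 5.71%. Reads on the strand opposite to genes were 4.92%, 4.94% and 4.94% of the reads on either strand, so the strand signal did not set replicate 1 apart.

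Exon length went with the ratio of replicate 1 over most of its range. From the bin next to the shortest to the longest, the median log2 ratio rose at every step. Over the same bins, the share of genes with a highest library over 2 times the lowest fell from 19.7% to 3.24%. The shortest bin departed from the trend in the median. In the longest of 10 bins of genes by exon length, replicate 1 was the highest library for 65.4% of genes, with a median log2 ratio to the other libraries of 0.16. It was the lowest for 58.8% in the bin next to the shortest and for 47.5% in the shortest, with medians of -0.19 and -0.07. Among genes with a highest library over 2 times the lowest, those highest in replicate 1 had a median exon length of 1662 bases and those lowest in replicate 1 one of 3791 bases. Chaperone genes of the HSP70 and HSP90 families were grouped with the mitochondrial chaperonin genes HSPD1 and HSPE1 after the levels were seen. Of this group, 16 of 20 genes were on, beside 58.9% of all protein-coding genes, and the group took 1.34% ± 0.0770 (SD, n = 3) of the reads. In 0 of the 16 was the highest library over 2 times the lowest, beside 12.0% of all genes with a mean of 1 CPM or more. HSPA5 came close to that cut at 1.99 times, as did TRAP1 at 1.82 and HSP90AA1 at 1.79 times.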
